A study of Mus musculus with 536 samples.

Results

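Whole blood of 16 C57BL/6 mice that had received granulocyte colony-stimulating factor (GCSF) was compared across 3 doses of total body gamma radiation. The arrays are the GCSF arm of a small treatment set, chosen by the set code and the agent in their titles. They make up 16 of the 50 arrays of that set and 16 of the 536 arrays of the series. At 6 hr, 6 mice had received GCSF and 0 cGy, 5 had received GCSF and 150 cGy, and 5 had received GCSF and 600 cGy. The mice were 10 to 12 weeks old, were irradiated from a cesium-137 source at 480 cGy per min, and were bled by cardiac puncture into PAXgene tubes. Globin transcripts were reduced before amplification and hybridisation to Affymetrix mouse 430A 2.0 arrays. All 3 groups carry the agent, so a difference between doses is a difference under GCSF. The labels do not say how much GCSF was given or how long before irradiation, and give no sex for these mice. Each array is labelled as a separate mouse. In the same set, 17 mice with neither GCSF nor any other agent had 0 cGy (6 mice), 150 cGy (6 mice) or 600 cGy (5 mice) at 6 hr, and served for the comparison with untreated blood.

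GCSF is the cytokine that drives production and release of neutrophils. It acts through the receptor Csf3r, the kinase Jak2 and STAT transcription factors, with Socs3 as feedback inhibitor. Ionising radiation breaks DNA and activates the kinase Atm and the transcription factor p53, whose targets arrest the cell cycle (Cdkn1a), limit p53 itself (Mdm2) or promote cell death (Bbc3, Fas). Among blood cells, B cells are among the most radiation-sensitive, T cells less so, while neutrophils and platelets are mature cells that no longer divide. In whole blood, fewer cells of a type and less RNA per cell cannot be told apart.

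Values are log2 RMA signals, so a difference of 1 is a doubling. A gene is said to have risen or fallen where its limma p-value, adjusted by Benjamini-Hochberg over 12393 genes, was below 0.05. Over all genes, 1352 rose and 1744 fell at 600 cGy against 0 cGy (10.9% and 14.1% of all genes). At 150 cGy 119 rose and 100 fell (0.960% and 0.807% of all genes). The list counts against 0 cGy given below are to be read beside these shares. With each array centred on its median, 1620 rose and 1534 fell at 600 cGy, so that the balance between rises and falls turned. Both comparisons share the 6 control mice. The count at 150 cGy was sensitive to single mice. It came to 130 without 150 cGy mouse 3, 137 without mouse 4 and 143 without mouse 9. It came to 129 without control mouse 4 (1.04% of all genes) and 354 without control mouse 8. The median difference over all genes was -0.01 at 150 cGy and 0.03 at 600 cGy.

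Of the control arrays, 2 stood apart, and results that rest on them are given with and without them. Control mouse 4 of the GCSF arm had a median correlation with its group of 0.927, against 0.976 to 0.989 for the other GCSF mice. This mouse had low B2m, a ubiquitous MHC class I subunit (9.36 against 13.12 to 13.25 in the other controls), and high Myh6, a heart muscle myosin (6.55 against 2.79 to 3.15). Its mean over 14 cardiomyocyte markers was 5.48, against 4.31 to 4.46 in the other controls. That mean was 4.29 to 4.49 in the 150 cGy mice and 4.45 to 4.99 in the 600 cGy mice. Of the 14 markers, 1 rose at 600 cGy (Myl2, 0.93). Without control mouse 4, 5 rose there, where 12.1% of all genes rose. The library labelled untreated 0 cGy mouse 10 went against its label. Its Cdkn1a value was 10.47 against 7.03 to 7.47 in the other untreated controls, its mean over 26 B cell genes was 6.51 against 8.62 to 9.13, and its mean over 21 neutrophil genes was 10.09 against 7.64 to 8.25. It enters the dose comparisons within GCSF mice only through the shared estimate of the spread. Xist, transcribed from the inactive X, was 10.94 to 12.22 in all 16 mice, and Eif2s3y on the Y was 2.93 to 3.28. In another set with labelled sex, the median of 111 females was 11.58 for Xist and 3.12 for Eif2s3y, and that of 115 males was 6.71 and 7.17. Alb, the hepatocyte product, ranged from 5.97 to 13.04 between the 16 mice, and none of 22 hepatocyte markers was called at either dose.

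Without radiation, several neutrophil transcripts were higher in blood of GCSF mice than in untreated blood. Over all genes 60 rose and 8 fell (0.549% called in either direction, 0.484% up and 0.0646% down). Lcn2, an iron-sequestering protein of neutrophil granules, was 10.63 to 11.78 (median 11.56) in the 6 GCSF controls. In the untreated controls it was 7.19 to 8.69 in 5 mice and 12.04 in mouse 10. Every GCSF mouse was above those 5 untreated mice and below mouse 10. The difference was 2.79 ± 0.37 (SE; limma adjusted p = 6.74e-06), and 3.47 ± 0.20 without mouse 10.

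Prok2, a chemokine-like protein made by neutrophils, rose (3.14 ± 0.40, adjusted p = 1.99e-06, limma), and by 3.38 ± 0.41 without untreated mouse 10. It was 6.13 to 7.94 (median 6.86) in the GCSF controls and 2.97 to 5.00 (median 3.78) in the untreated controls, with no overlap. The secondary granule genes Ngp (2.59 ± 0.30) and Ltf (1.58 ± 0.24) rose, as did Socs3 (1.72 ± 0.31), Ifitm1, an antiviral membrane protein of neutrophils (2.32 ± 0.28), and Lrg1, a glycoprotein stored in neutrophils (2.40 ± 0.37). Of 21 mature neutrophil genes 5 rose, with a median of 0.85, and of 11 secondary granule genes 4 rose, with a median of 0.97. The median over all genes was -0.03. The receptor Csf3r itself was not called (0.85 ± 0.24, adjusted p = 0.0947).

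The untreated library labelled mouse 10 weighed heavily on this comparison. Without it 171 genes rose and 24 fell (1.57% called, 1.38% up and 0.194% down), and 14 of the 21 neutrophil genes rose. The count of 68 called genes was also 113 without GCSF mouse 8, 43 without GCSF mouse 1, 42 without untreated mouse 2 and 28 without untreated mouse 8. The neutrophil count of 5 came to 3 without GCSF mouse 5 or 6, or without untreated mouse 1, 2, 3 or 8. With all 6 untreated controls, no p53, B cell or T cell list gene was called between the agents at 0 cGy. Only 0.549% of all genes were called there, so this absence says little of these lists. All 26 B cell genes were above 0 (median 0.40), and the p53 arrest median was -0.23. The controls include mouse 10, with its low B cell and high Cdkn1a values.

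Genes of the p53 arrest and death lists rose at both doses. Promoter sequences of 3 of them are shown because their transcripts rose at 600 cGy and a p53 half-site lies just upstream. The sequences are RefSeq promoters of build GRCm38.p6, written 5′ to 3′ on the gene's strand, with the half-site in capitals.
Cdkn1a, chr17:29090876-29090975, plus strand: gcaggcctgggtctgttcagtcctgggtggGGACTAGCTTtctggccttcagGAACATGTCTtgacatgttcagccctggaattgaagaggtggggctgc
Ccng1, chr11:40755402-40755501, minus strand: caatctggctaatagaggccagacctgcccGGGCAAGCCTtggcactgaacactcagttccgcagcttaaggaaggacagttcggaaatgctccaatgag
Mdm2, chr10:117710875-117710974, minus strand: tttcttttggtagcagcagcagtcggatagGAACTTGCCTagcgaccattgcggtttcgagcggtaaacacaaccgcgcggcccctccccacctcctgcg
The 10-base p53 half-site consensus was searched on both strands in the 250 bases before each start. It was found for 10 of the 33 p53 list genes with a promoter in the table, of 41 measured (Aen, Ccng1, Cdkn1a, Ei24, Gadd45a, Mdm2, Polk, Ppm1d, Sesn1 and Siva1). Of all 32851 promoters, counted by start, 7.13% held it. A list gene was counted where any of its starts held a match, so these shares are not like for like. Psrc1, Phlda3 and Bbc3 held no match in this window. A match is a run of letters and says nothing of binding.

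Cdkn1a, the inhibitor of cyclin-dependent kinases, was 7.30 to 7.99 (median 7.54) in the 6 controls. It was 9.39, 10.03, 9.74, 9.85 and 10.17 at 150 cGy, and 10.69, 10.16, 10.45, 10.35 and 10.76 at 600 cGy. Every irradiated mouse lay above every control, and the doses overlapped each other. The rise was 4.75-fold at 150 cGy (2.25 ± 0.32 on the log2 scale, limma adjusted p = 1.57e-05) and 7.41-fold at 600 cGy (2.89 ± 0.32, adjusted p = 8.27e-09). Ccng1, which restrains p53 through Mdm2, was 8.08 to 8.96 in the controls, 9.5 to 10.3 at 150 cGy and 9.93 to 10.53 at 600 cGy. It rose by 1.51 ± 0.25 and 1.76 ± 0.25, with no overlap between controls and either dose. Phlda3, a repressor of Akt, was 6.42 to 7.35 in the controls, 8.48 to 8.73 at 150 cGy and 8.65 to 9.49 at 600 cGy. It rose by 1.79 ± 0.25 and 2.40 ± 0.25.

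**Figure D1:**
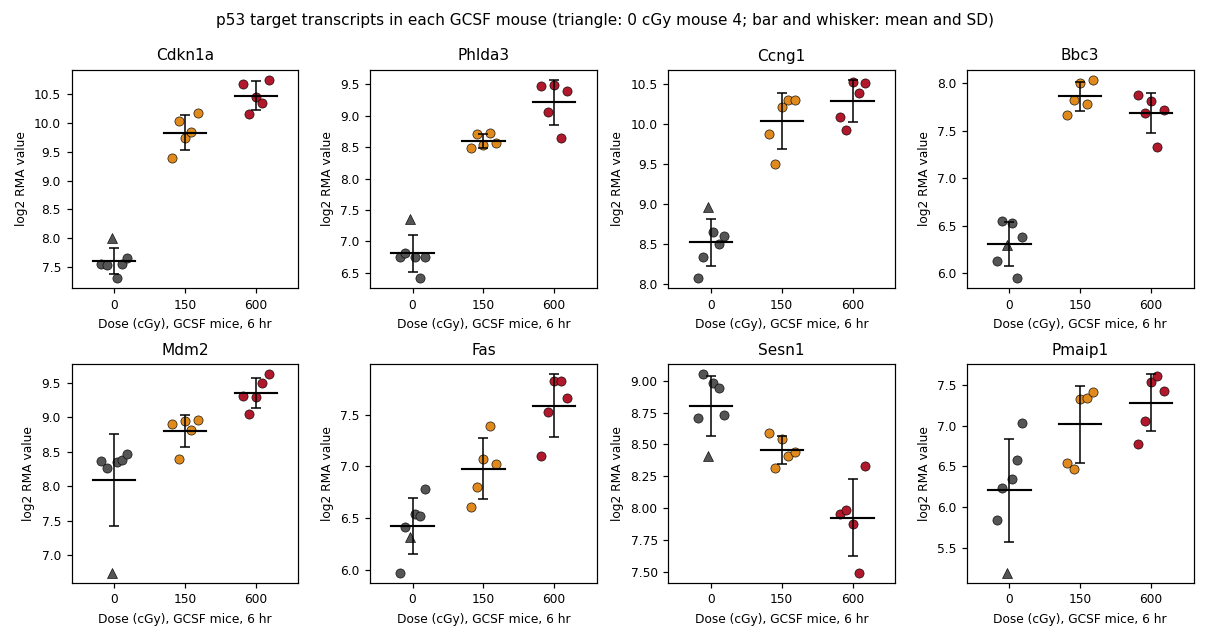
Log2 RMA values of 8 p53 target transcripts in each GCSF mouse at 0, 150 and 600 cGy (6, 5 and 5 mice), with the mean and SD of each group; the triangle is control mouse 4. Cdkn1a, Phlda3, Ccng1 and Bbc3 separate both doses from the controls, while Sesn1 lies lower at 600 cGy and Pmaip1 overlaps.

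Mdm2, the ubiquitin ligase that degrades p53, was 8.26 to 8.47 in 5 controls and 6.75 in control mouse 4. At 150 cGy it was 8.90, 8.40, 8.94, 8.81 and 8.96, and at 600 cGy 9.31, 9.05, 9.29, 9.49 and 9.62. At 600 cGy all mice lay above the controls and above the 150 cGy mice. The rise was 1.26 ± 0.21 (adjusted p = 8.41e-06, limma), with a difference of 0.53 in its other probe set. At 150 cGy the difference of 0.71 ± 0.21 was not called (adjusted p = 0.0579), and it was called without the untreated library labelled mouse 10 (0.0275). Psrc1, a microtubule-associated p53 target, showed the largest difference of these genes (2.52 ± 0.29 at 150 cGy and 3.18 ± 0.29 at 600 cGy). Its 3 probe sets ranged from -0.24 to 3.18 at 600 cGy, and the rise is that of its brightest.

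Over the arrest and feedback list, 7 of 17 measured genes rose and 1 fell at 150 cGy (1.77% of all genes called in either direction), with a median of 0.71. At 600 cGy 11 rose and 1 fell (25.0% of all genes called), with a median of 1.26. The one that fell at both doses was Sfn, an epithelial checkpoint protein (-0.60 and -0.60). Of 13 genes of the p53 death list 5 rose at 150 cGy and 10 at 600 cGy (0.960% and 10.9% of all genes rose), with medians of 0.56 and 0.90. These counts include Dcxr (1.05 and 1.67), which is on the list but encodes a metabolic enzyme. Ei24 and Pmaip1 are on both lists. All-gene medians were -0.01 and 0.03.

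Among the death genes, Bbc3, which encodes the BH3-only protein PUMA, was 5.95 to 6.55 in the controls. It was 7.67 to 8.04 at 150 cGy and 7.33 to 7.88 at 600 cGy, so both doses lay above the controls and overlapped each other. It rose by 1.56 ± 0.18 and 1.38 ± 0.18. Fas, the death receptor, was 5.97 to 6.78 in the controls, 6.61 to 7.39 at 150 cGy and 7.10 to 7.83 at 600 cGy. It was not called at 150 cGy (0.56 ± 0.20, limma adjusted p = 0.146) and rose at 600 cGy by 1.17 ± 0.20. Apaf1, the apoptosome scaffold, rose by 0.88 ± 0.20 and 1.44 ± 0.20, and its other probe set differed by 0.38 at 600 cGy. The call at 150 cGy was lost without control mouse 4 (0.76, limma adjusted p = 0.0532). Pmaip1, which encodes the BH3-only protein NOXA, rose at 600 cGy (1.07 ± 0.27) although its values of 6.78 to 7.60 overlapped the controls at 5.20 to 7.03.

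The p53 targets for repair and metabolism did not move as a block. Of 13 genes 1 rose at 150 cGy, and 4 rose and 2 fell at 600 cGy (10.9% and 14.1% of all genes). The medians were -0.09 and -0.13. Polk, a translesion polymerase, rose at both doses (0.90 ± 0.17 and 1.43 ± 0.17). Sesn2, a stress-induced regulator of mTORC1, rose at 600 cGy (0.72 ± 0.18). Its relative Sesn1 was 8.41 to 9.05 in the controls and 7.49, 7.87, 7.95, 7.98 and 8.33 at 600 cGy, with no overlap, and the difference was -0.88 ± 0.18. Rpa1, the single-strand DNA binding subunit, was 9.05 to 9.76 in the controls and 7.71 to 8.35 at 600 cGy and fell (-1.32 ± 0.18). Without control mouse 4, 4 rose and 4 fell at 600 cGy.

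Some sensors and ligation factors of double-strand breaks were lower at 600 cGy than at 0 cGy. None of 17 was called at 150 cGy. At 600 cGy 8 fell and none rose (14.1% of all genes fell), with a median of -0.21. Atm, the kinase that signals breaks, was 6.01 to 7.14 in the controls, 6.11 to 6.38 at 150 cGy and 4.98 to 5.88 at 600 cGy. The difference was -1.05 ± 0.19 at 600 cGy (limma adjusted p = 3.02e-05), with no overlap. Atr fell (-1.12), as did Prkdc, the DNA-dependent protein kinase (-0.80). B and T cell transcripts fell in the same mice, and their part in these differences was not tested.

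Other early risers at both doses were Zmat3, Pvt1, Dglucy and Rbl2. Zmat3, an RNA-binding p53 target, was 5.65 to 6.30 in the controls, 6.97 to 7.38 at 150 cGy and 7.17 to 7.69 at 600 cGy, and rose by 1.29 ± 0.17 and 1.39 ± 0.17. Dglucy, the D-glutamate cyclase, was 6.56 to 6.81 in the controls, 7.70 to 8.39 at 150 cGy and 7.97 to 8.74 at 600 cGy, with both doses above every control. Pvt1, a long non-coding RNA, rose by 1.47 ± 0.22 and 1.63 ± 0.22, and 1 of its 3 probe sets differed by only -0.01 at 600 cGy. Rbl2, a retinoblastoma family repressor of cell cycle genes, rose by 1.53 ± 0.35 at 150 cGy. That value moved to 0.96 without control mouse 4, in which Rbl2 read 3.01. Of 14 BCL2 family genes, 1 rose at 150 cGy (Bbc3) and 4 at 600 cGy (Bbc3, Pmaip1, Bid and Mcl1). The Mcl1 call of 0.78 ± 0.19 was lost with the mean of its 6 probe sets (0.23, adjusted p = 0.141).

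B cell transcripts fell at both doses and most at 600 cGy. Of 26 genes 9 fell at 150 cGy and 25 at 600 cGy (0.807% and 14.1% of all genes fell). The medians were -1.07 and -2.37, and none of the 26 rose. Pax5 was the gene not called at 600 cGy. The mean over the list was 8.67 to 9.35 in the controls, 7.71 to 8.07 at 150 cGy and 6.51 to 7.00 at 600 cGy, with no overlap between any of the groups. Without the untreated library labelled mouse 10, the count at 150 cGy came to 18 (1.44% of all genes fell in that fit, and 2.99% were called).

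The promoter of Vpreb3, a chaperone of the developing B cell receptor, is shown because its transcript fell at both doses and an octamer motif (ATTTGCAT, in capitals, searched on both strands) lies upstream of its start.
Vpreb3, chr10:75948200-75948299, plus strand: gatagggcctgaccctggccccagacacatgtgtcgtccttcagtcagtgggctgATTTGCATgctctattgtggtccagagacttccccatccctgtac
The octamer is the site of Oct factors at immunoglobulin promoters. It was found in the 250 bases before any start of 2 of the 19 B cell genes with a promoter in the table (Blnk and Vpreb3). Of all promoters, counted by start and not by gene, 1.60% held it, so these shares are not like for like. Vpreb3 was 7.04 to 8.60 in the controls, 5.33 to 6.06 at 150 cGy and 4.83 to 5.40 at 600 cGy. Its differences were -2.26 ± 0.34 and -2.95 ± 0.34, with no overlap between the controls and either dose.

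An immunoglobulin transcript gave the largest fall among the named genes. Ighv14-2, a heavy chain variable segment, was 9.99 to 11.28 (median 11.14) in the controls. It was 8.88, 8.38, 9.52, 9.09 and 8.31 at 150 cGy and 6.12, 4.93, 5.93, 5.81 and 6.12 at 600 cGy, in 3 separate ranges. The fall at 600 cGy was 34.97-fold (-5.13 ± 0.51, limma adjusted p = 6.69e-10). The fall at 150 cGy was -2.07 ± 0.51 (adjusted p = 0.0187), and that call was lost without 150 cGy mouse 4 (-1.96, 0.0599) or mouse 9 (-1.94, 0.0631). Probes for variable segments can bind related segments, so the value may sum several.

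Cd79a and Cd79b, the signalling chains of the B cell receptor, were 11.29 to 11.72 and 10.74 to 11.42 in the controls. At 600 cGy Cd79a was 8.30, 7.43, 8.10, 7.47 and 8.18, and Cd79b was 8.19, 7.25, 8.09, 7.32 and 8.09. Their differences were -3.61 and -3.32 on the log2 scale. At 150 cGy their values of 9.62 to 10.23 and 9.44 to 10.15 lay below every control, but the differences were not called (adjusted p = 0.0604 and 0.0842, limma). Both were called without the untreated library labelled mouse 10 (0.000955 and 0.00639).

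Fcer2a, the low-affinity IgE receptor CD23 of mature B cells, fell at both doses (-2.27 ± 0.37 and -3.79 ± 0.37), in separate ranges of 9.98 to 10.74, 7.21 to 8.66 and 6.29 to 6.61. Its other probe set differed by -1.34 at 600 cGy. Cr2, the complement receptor CD21, was 5.40 to 6.82, 4.03 to 5.33 and 3.63 to 3.81, and fell at both doses (-1.64 and -2.67). Tnfrsf13c, the receptor for the survival factor BAFF, fell as well (-1.88 and -3.19). Cd72 and Hvcn1, a B cell coreceptor and a proton channel, also fell at both doses. Ms4a1, which encodes CD20, fell at 600 cGy (-2.24 ± 0.42) and was not called at 150 cGy (-0.69 ± 0.42).

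MHC class II genes, which B cells share with other antigen-presenting cells, followed the same order. Of 8 genes 4 fell at 150 cGy and 8 at 600 cGy (0.807% and 14.1% of all genes fell), with medians of -0.99 and -2.35. The master regulator Ciita was 7.41 to 8.15 in the controls, 6.29 to 6.83 at 150 cGy and 5.21 to 5.74 at 600 cGy, and fell at both doses (-1.30 and -2.38). H2-Oa, a B cell modulator of peptide loading, fell as well (-1.5 and -2.97). Without the untreated library labelled mouse 10, 7 fell at 150 cGy (1.44% of all genes fell in that fit). Of 10 plasma cell genes, 3 rose (Edem1, Xbp1 and Tnfrsf17) and 2 fell (Irf4 and Igk) at 600 cGy.

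T cell transcripts were not called at 150 cGy. Of 24 genes none was called there, with a median of 0.13. At 600 cGy 14 fell (14.1% of all genes fell), with a median of -0.72. The list mean was 7.64 to 8.21 in the controls, 8.02 to 8.28 at 150 cGy and 6.70 to 7.61 at 600 cGy, so the 600 cGy mice lay below all others. Thy1, a surface glycoprotein of T cells, was 10.15 to 10.69 in the controls and 10.03 to 10.26 at 150 cGy. At 600 cGy it was 8.12, 7.70, 7.34, 6.83 and 8.57, below every other mouse. The difference there was -2.70 ± 0.40 (limma adjusted p = 1.85e-06), against -0.27 ± 0.40 at 150 cGy.

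Cd8b1, a chain of the CD8 coreceptor, was 8.10 to 9.66 in the controls and 6.21 to 8.02 at 600 cGy and fell (-2.22). Cd5 fell (-1.68), as did Ccr7, the receptor that guides lymphocytes to lymph nodes (-1.83). Cd3e, a signalling chain of the T cell receptor, fell (-0.74), a call lost without 600 cGy mouse 5 (-0.62, adjusted p = 0.0559). Of 14 genes of lymphocyte homing and survival, 3 fell at 150 cGy (Bach2, Ccr6 and Tnfrsf13c) and 11 at 600 cGy. The medians were -0.42 and -1.42, and 0.807% and 14.1% of all genes fell. Itgb7, an integrin of gut homing, was 9.01 to 9.65 in the controls and 7.82 to 8.30 at 600 cGy. Foxo1, which maintains resting lymphocytes, fell (-1.56), with 1 of its 4 probe sets at 0.04.

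Natural killer and cytotoxic genes gave few calls. None of 18 was called at 150 cGy, and at 600 cGy Ctsw fell (-1.16 ± 0.25) and Gzmb rose (0.96 ± 0.37, limma adjusted p = 0.0484). Over all genes 14.1% fell and 10.9% rose there, larger shares than in this list. The Gzmb call was lost in 10 of the 16 fits that left out 1 mouse, with an adjusted p of 0.126 without control mouse 4 and 0.158 without 600 cGy mouse 1. The list median at 600 cGy was -0.04 and its sign turned with median centring (0.01). Of 11 immunoproteasome and MHC class I genes, 6 fell at 600 cGy (14.1% of all genes fell), with a median of -0.44. Psmb10, an inducible proteasome subunit, was 8.85 to 9.44 in the controls and 7.67 to 8.37 at 600 cGy.

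**Figure D2:**
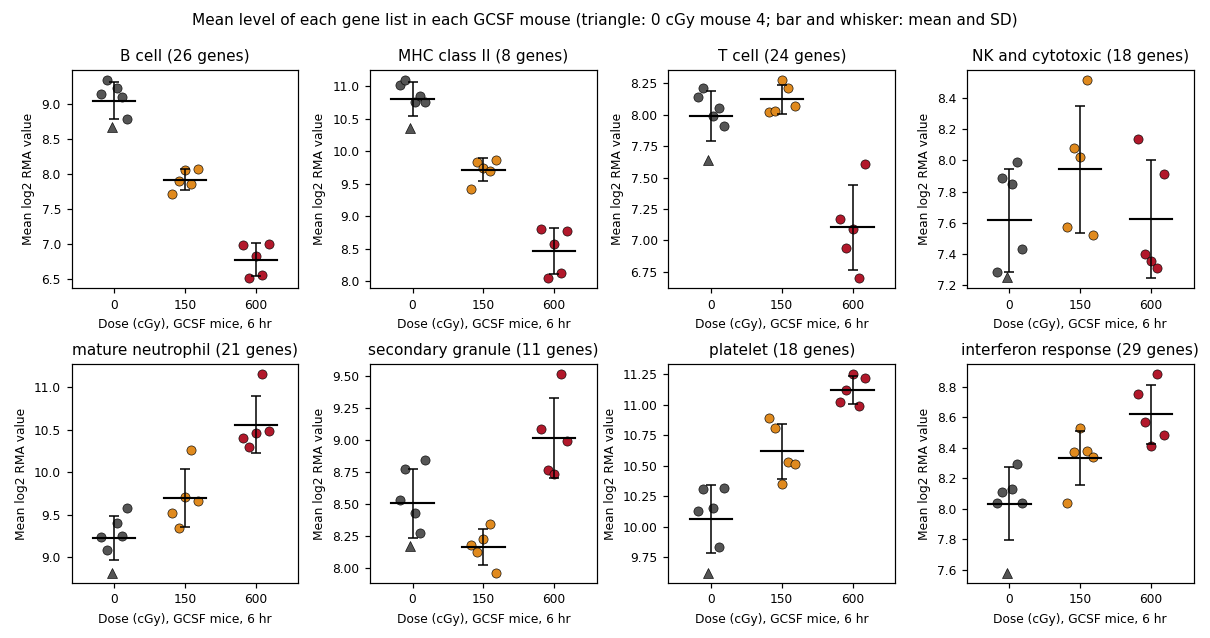
Mean log2 RMA value over the members of 8 gene lists in each GCSF mouse by dose, with group mean and SD; the triangle is control mouse 4. The B cell and MHC class II lists step down at both doses, the T cell list is lower only in the 600 cGy mice, and the neutrophil and platelet lists are highest at 600 cGy.

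Mature neutrophil transcripts rose at 600 cGy on top of the GCSF level. Of 21 genes none was called at 150 cGy (median 0.53), and 18 rose at 600 cGy (median 1.24), where 10.9% of all genes rose. Without the untreated library labelled mouse 10, 3 rose at 150 cGy. The 3 not called at 600 cGy were S100a8, S100a9 and Lrg1. The list mean was 8.82 to 9.58 in the controls, 9.35 to 10.26 at 150 cGy and 10.30 to 11.15 at 600 cGy, with no overlap between 600 cGy and the others. Of 9 primary granule genes of neutrophil precursors, none rose and Serpinb1a fell at 600 cGy (-1.08 ± 0.35).

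Trem1, an amplifier of inflammatory signalling, was 6.39 to 7.14 in the controls and 7.24 to 7.96 at 150 cGy. At 600 cGy it was 9.23, 8.95, 8.94, 9.66 and 8.84. The 3 groups did not overlap, and the rise at 600 cGy was 5.14-fold (2.36 ± 0.32, limma adjusted p = 3.58e-07). At 150 cGy the difference of 0.82 ± 0.32 was not called (0.195). Mmp8, the neutrophil collagenase, was 9.59 to 10.15 in 5 controls and 8.24 in control mouse 4. It was 9.28 to 10.91 at 150 cGy and 11.12 to 12.54 at 600 cGy, and rose there by 2.07 ± 0.41. Stfa3, a stefin protease inhibitor, was 3.72 to 4.65 in the controls and 4.71, 7.07, 7.24, 7.90 and 5.25 at 600 cGy. Its 600 cGy mice spread over 3 log2 units, and its probes may bind the other stefins of its cluster.

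Genes of the secondary granule list moved in both directions. At 150 cGy Ltf, Ngp, Camp and Chil3 fell, of 11 measured. The only rise there was Padi4, which is on the list but is not itself a granule protein. At 600 cGy Mmp8, Lcn2 and Padi4 rose and Ltf fell. Ltf, lactoferrin, was 5.21 to 7.13 in the controls, 4.16 to 4.63 at 150 cGy and 4.72 to 5.79 at 600 cGy. The difference was -1.52 ± 0.25 at 150 cGy (limma adjusted p = 0.000256), with no overlap. Its fall at 600 cGy (-0.77 ± 0.25) was lost without 600 cGy mouse 4 (-0.65) or mouse 6 (-0.70), or without control mouse 3 (-0.53).

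Ngp, a cathelin-like granule protein, was 8.66 to 10.21 in the controls, 7.10 to 8.81 at 150 cGy and 9.22 to 10.90 at 600 cGy. It fell at 150 cGy (-1.42 ± 0.32), a call lost without 150 cGy mouse 9 (-1.21, adjusted p = 0.0547), and was not called at 600 cGy (0.65 ± 0.32). Between the doses it was 2.07 ± 0.33 higher at 600 cGy (limma adjusted p = 0.000425). Camp, the cathelicidin, was 6.89 to 7.45 in the controls and 5.61 to 6.04 at 150 cGy and fell (-1.33). Without 150 cGy mouse 9 the list held 2 falls and no rise at 150 cGy, and without 600 cGy mouse 6 it held 1 rise at 600 cGy.

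Of 22 genes of GCSF receptor signalling, none was called at 150 cGy. At 600 cGy 12 rose (10.9% of all genes rose) and 1 fell (Tyk2, -0.53), with a median of 0.43. Csf3r was 11.23 to 11.63 in 5 controls, 10.17 in control mouse 4, and 12.07 to 12.70 at 600 cGy, and rose by 1.14 ± 0.25. Cebpd, a transcription factor of granulocyte maturation, was 8.28 to 9.76 in the controls and 10.17, 10.28, 10.30, 10.98 and 10.33 at 600 cGy. It rose by 1.25 ± 0.24, and its other probe set differed by 0.29. Socs3 was 9.25 to 9.85 in the controls and 10.08 to 10.98 at 600 cGy. Its rise of 0.91 ± 0.32 (limma adjusted p = 0.0317) was lost without 600 cGy mouse 4 (0.0646) or 5 (0.10), or without control mouse 1 (0.0619), 3 (0.0554) or 6 (0.0541). Lcn2 rose by 1.14 ± 0.39 at 600 cGy (0.0262). That call was lost without 600 cGy mouse 5 (0.0751) or 6 (0.0577), or without control mouse 4 (0.0631) or 6 (0.0501). Of 12 transcripts listed as raised by GCSF, 5 were called higher with GCSF at 0 cGy here (0.484% of all genes rose). The list was chosen with earlier results of these data known, so that count is no independent check. Among the 12, 1 rose at 150 cGy (Bst1) and 8 at 600 cGy, with medians of 0.30 and 0.98. In untreated mice, with all 6 controls, the list median at 600 cGy was 1.28, against -0.05 over all genes. Those controls include the library labelled mouse 10, whose list mean was 9.59 against 8.06 to 8.31 in the others.

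Against 0 cGy, interferon-responsive transcripts rose in part at 150 cGy and in larger number at 600 cGy. Tested directly against 150 cGy, 600 cGy raised 1 of the 29 list genes and lowered 1. Over all genes 0.960% rose at 150 cGy, and 10.9% rose and 14.1% fell at 600 cGy, against 0 cGy. Of 29 genes 4 rose and 1 fell at 150 cGy (Ifit3, Ifit2, Gbp2 and Igtp, and Irf8), and 18 rose and 3 fell at 600 cGy (Irf8, Psmb8 and Psmb9), with medians of 0.33 and 0.64. Psmb8 and Psmb9 also belong to the immunoproteasome list, and Irf8 is a factor of monocytes and B cells. The promoter of Ifit3, an RNA-binding antiviral protein, is shown because it holds 2 matches to the interferon response motif (GAAA, any 2 bases, GAAA) and its transcript rose at both doses. The motif was searched on both strands and appears here, in capitals, as its reverse complement.
Ifit3, chr19:34583343-34583442, plus strand: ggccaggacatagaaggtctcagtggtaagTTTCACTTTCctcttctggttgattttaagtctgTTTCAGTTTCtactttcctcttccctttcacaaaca
The motif was found at any start of 11 of the 23 interferon list genes with a promoter in the table. Of all promoters, counted by start and not by gene, 2.98% held it, so these shares are not like for like.

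Ifit3 was 5.06 to 5.76 (median 5.17) in the controls, 6.02, 6.63, 7.03, 6.74 and 6.49 at 150 cGy and 7.54, 7.54, 7.25, 7.94 and 6.87 at 600 cGy. Both doses lay above every control, and it rose by 1.31 ± 0.26 and 2.15 ± 0.26 (limma adjusted p = 0.00259 and 4.73e-08). Gbp2, an interferon-induced GTPase, was 8.66 to 9.17, 9.28 to 10.03 and 9.89 to 10.61, and rose by 0.79 ± 0.18 and 1.24 ± 0.18. Ifit2 rose by 0.99 ± 0.24 and 1.53 ± 0.24, and the first call was lost without control mouse 4 (0.68, adjusted p = 0.0831) or 150 cGy mouse 7 (0.95, 0.054). Without either of these mice, 2 of the interferon genes rose at 150 cGy.

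Inflammatory and immediate early genes were called mainly at 600 cGy. Of 34 NF-kB and inflammatory genes none was called at 150 cGy, and 14 rose and 4 fell (Relb, Nfkb2, Traf1 and Nfkbie) at 600 cGy. The medians were 0.23 and 0.46. Without 600 cGy mouse 5, 9 rose and 3 fell. Over all genes 10.9% rose and 14.1% fell at 600 cGy, so the falls of this list do not exceed the share over all genes. Ier3, a survival gene, was 7.37 to 8.36 in the controls, 7.94 to 8.74 at 150 cGy and 9.18 to 9.82 at 600 cGy, and rose there by 1.81 ± 0.30. Of 29 immediate early and stress genes, 1 rose at 150 cGy and 11 rose and 2 fell (Dusp2 and Myc) at 600 cGy. The one at 150 cGy was Ddit4, an inhibitor of mTORC1 (6.33 to 7.37, 7.73 to 8.32 and 7.44 to 8.43 at 0, 150 and 600 cGy), which rose by 1.22 ± 0.22 and 1.07 ± 0.22. Junb rose at 600 cGy by 1.26 ± 0.23 and Dusp1, a phosphatase of MAP kinases, by 1.49 ± 0.33.

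Platelet transcripts rose at 600 cGy in every measured gene of the list. Of 18 genes 4 rose at 150 cGy (Alox12, Gp9, Clec1b and Treml1) and 18 at 600 cGy. The medians were 0.46 and 1.01, and 0.960% and 10.9% of all genes rose. The list mean was 9.62 to 10.32 in the controls, 10.35 to 10.89 at 150 cGy and 10.99 to 11.25 at 600 cGy, in separate ranges. The count at 150 cGy moved with single mice. It was 1 without control mouse 4, control mouse 6 or 150 cGy mouse 4, and 0 without 150 cGy mouse 3. It was 2 without 150 cGy mouse 9, 7 without untreated control 3 or 10 (1.55% of all genes rose without mouse 10), and 8 without control mouse 8. The count at 600 cGy was 16 without control mouse 4.

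Gp9, a subunit of the von Willebrand factor receptor, was 11.08, 11.05, 10.00, 11.08, 10.66 and 11.36 in controls 1, 3, 4, 5, 6 and 8. It was 11.35 to 12.01 at 150 cGy and 11.93, 12.24, 12.57, 12.01 and 12.26 at 600 cGy. At 600 cGy it lay above all controls and rose by 1.33 ± 0.18 (limma adjusted p = 3.36e-07). At 150 cGy it overlapped the controls, and the rise of 0.74 ± 0.18 was not called without control mouse 4 (0.56, adjusted p = 0.0809), 150 cGy mouse 3 (0.70, 0.0572) or mouse 4 (0.64, 0.0773). Thbs1, thrombospondin of platelet granules, rose by 2.30 ± 0.39 at 600 cGy and by 1.76 without control mouse 4, where it read 5.74 against 8.57 to 9.90. Pf4, a platelet chemokine, rose by 0.67 ± 0.11.

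Erythroid transcripts were mostly not called. Of 28 genes 1 rose at 150 cGy, and 5 rose and 1 fell at 600 cGy (10.9% and 14.1% of all genes). The medians were -0.19 and -0.05. Those that rose at 600 cGy included the transcription factors Tal1 (1.30 ± 0.15), Nfe2 (0.63 ± 0.14) and Gata1 (0.56 ± 0.13), which megakaryocytes also use. Alas2, the first enzyme of heme synthesis in red cells, was 14.28 to 14.43 in the controls and 14.19 to 14.39 at 600 cGy, and was not called. None of 6 globin genes was called, after the reduction of globin RNA. Of 38 cell cycle genes none was called at 150 cGy, and 1 rose (Kif23) and 4 fell at 600 cGy. The 4 that fell were Mcm2, Mcm3, Mcm5 and Mcm6, subunits of the replicative helicase. Over all genes 10.9% rose and 14.1% fell there, so neither count exceeds the share over all genes. Mcm6 was 6.81 to 7.88 in the controls and 5.97 to 6.81 at 600 cGy and fell (-1.04).

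Among myeloid genes of other cells, 5 of 20 monocyte genes rose and 3 fell at 600 cGy (median 0.01, with a sign that turns under other scaling). Over all genes 10.9% rose and 14.1% fell there, so the monocyte falls were near the share over all genes. Marco, a scavenger receptor of splenic macrophages, was 6.00 to 7.58 in the controls, 7.86, 9.64, 7.68, 7.64 and 10.02 at 150 cGy and 9.04, 7.38, 8.95, 6.94 and 8.96 at 600 cGy. It rose at 150 cGy by 1.84 ± 0.44 (limma adjusted p = 0.0149), a call lost without 150 cGy mouse 4 (1.57, 0.0747) or mouse 9 (1.48, 0.0901). Of 15 tissue macrophage genes 1 rose at 150 cGy and 3 at 600 cGy (5 without 600 cGy mouse 5). Of 13 eosinophil, basophil and mast cell genes, Hdc, Kit and Gata2 rose at 600 cGy. Hdc, the histamine-forming enzyme, is also on the neutrophil list.

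**Figure D3:**
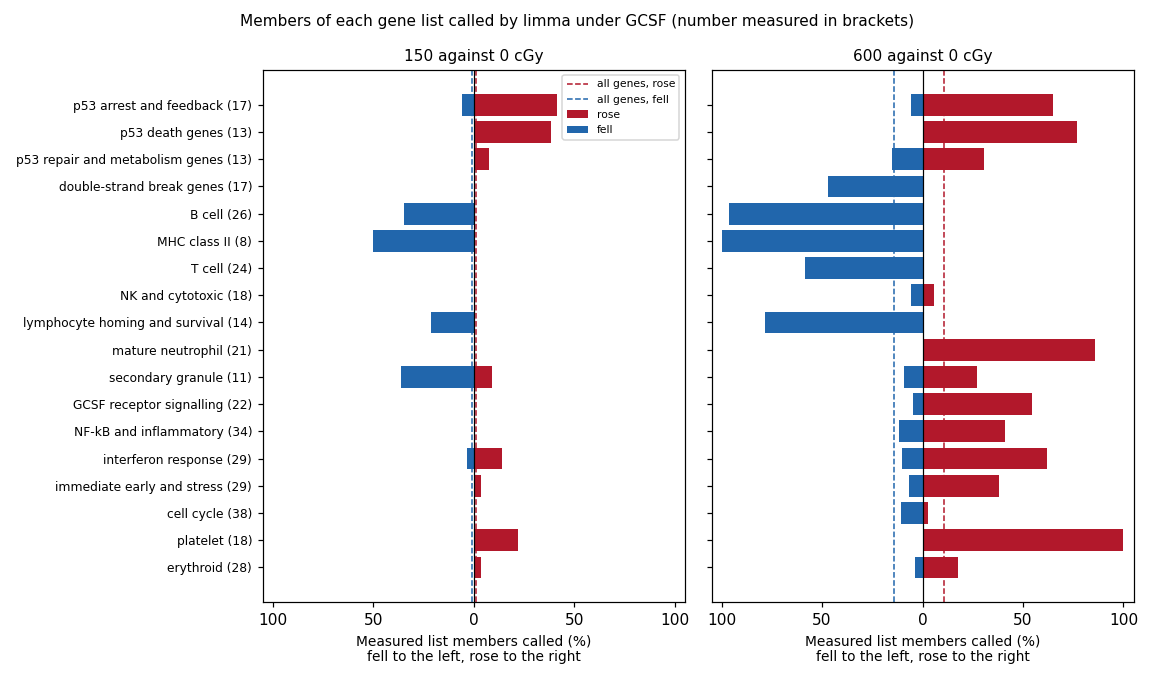
Share of the measured members of each gene list that rose (right) or fell (left) by limma at 150 and 600 cGy against the GCSF controls; the dashed lines give the share of all 12393 genes. At 600 cGy the B cell and MHC class II bars reach furthest to the left, with 25 of 26 and 8 of 8 genes, and all 18 platelet genes rose.

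Outside the lists, Lipg, the endothelial lipase, showed the smallest p among the named genes at 600 cGy. It was 5.09, 5.42, 4.36, 4.88, 4.64 and 5.26 in the 6 controls and 4.83, 5.23, 5.11, 6.00 and 5.07 at 150 cGy. At 600 cGy it was 8.32, 8.10, 7.56, 8.90 and 7.94, far above every other mouse. The rise was 9.34-fold at 600 cGy (3.22 ± 0.23, limma adjusted p = 4.13e-14), and the difference at 150 cGy was 0.31 ± 0.23. One of its 3 probe sets differed by only 0.07. Saa1, an acute phase protein made mainly by liver, was 4.45 to 5.14 in the controls and 8.32, 6.74, 9.33, 11.06 and 5.98 at 600 cGy. Its rise of 3.60 ± 1.08 was lost without 600 cGy mouse 5 (2.91, adjusted p = 0.057). In that mouse Alb was 12.97, against 9.84 to 11.66 in the other 600 cGy mice. In the GCSF controls other than mouse 4, Alb was 10.41 to 13.04 and Saa1 4.45 to 4.72. The part of liver RNA was not tested. Scrg1, a small secreted protein, was 5.18 to 5.96 in the controls and 7.21 to 9.12 at 600 cGy and rose by 2.51 ± 0.38.

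Among other named genes, Foxd4, a forkhead factor, rose at both doses (1.29 ± 0.36 and 2.43 ± 0.36), in ranges of 5.16 to 6.99, 6.99 to 8.37 and 8.35 to 9.09. Its call at 150 cGy was lost without control mouse 4 (1.09, adjusted p = 0.147). Crisp3, a cysteine-rich secretory protein, was 4.44 to 6.08 in the controls, 2.84 to 3.47 at 150 cGy and 2.79 to 2.99 at 600 cGy. It fell at both doses (-2.15 ± 0.32 and -2.42 ± 0.32), and both doses lay below every control. B3gnt5, a glycosyltransferase of lacto-series lipids, was 8.48 to 10.11, 7.73 to 8.61 and 5.89 to 6.52, and fell at 600 cGy (-3.41 ± 0.48). Its other probe set differed by -0.71 there.

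Tested directly against 150 cGy, 600 cGy raised 185 genes and lowered 302 (3.93% called in either direction, 1.49% up and 2.44% down), with an all-gene median of 0.03. Of the lymphocyte lists, which share some members, 15 of 26 B cell genes, 8 of 8 MHC class II genes, 11 of 24 T cell genes and 7 of 14 homing genes fell, and none of them rose. Ighv14-2 fell (-3.05 ± 0.53, limma adjusted p = 0.00101), as did Thy1 (-2.43 ± 0.42, 0.00101), Itgb7 (-1.02) and Ccr7 (-1.27). Among the rises were Lipg (2.92 ± 0.24, 7.36e-12), Ngp, Trem1 (1.54 ± 0.33), Scrg1 (2.00 ± 0.40) and 7 of 21 neutrophil genes. Of 17 p53 arrest genes 2 rose and of 13 death genes none was called. Cdkn1a differed by 0.64 ± 0.33 between the doses (0.275), and it was called without the untreated library labelled mouse 10 (0.0332).

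The counts between the doses depended on single mice. Of the 487 calls, 131 were counted without 150 cGy mouse 5, 283 without mouse 7 and 119 without mouse 9. The count was 175 without 600 cGy mouse 3, 245 without mouse 4 and 110 without mouse 5, and 753 without control mouse 4 (6.08%, with 2.46% up and 3.61% down). It was 812 without the untreated library labelled mouse 10 (6.55%, with 2.58% up and 3.97% down). The 15 B cell falls came to 5 and 4 without 150 cGy mouse 5 or 9, and to 4, 9 and 3 without 600 cGy mouse 3, 4 or 5. The 8 MHC class II falls came to 4, 2, 5 and 3 without 150 cGy mouse 4, 5, 7 or 9, and to 3 without 600 cGy mouse 3 or 5. The 7 homing falls came to 4 without 150 cGy mouse 5 or 9 or 600 cGy mouse 3 or 4, and to 3 without 600 cGy mouse 5. The 7 neutrophil rises came to 3 without 150 cGy mouse 4, 5 or 9, to 4 without 600 cGy mouse 1 or 3 to 1 without mouse 5, and to 11 without the untreated library labelled mouse 10. Without that library, 5 p53 arrest genes and 4 death genes rose between the doses. The 11 T cell falls came to 18 without control mouse 4 and 17 without untreated mouse 10. The platelet rises came to 5 and 6 in these fits, and the interferon rises to 4 in each.

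Whether radiation acted differently under GCSF was tested as the difference of the dose effects between GCSF and untreated mice, with all 6 untreated controls. At 150 cGy no gene was called by limma, with 561 genes at an unadjusted p below 0.05. At 600 cGy 4 were called (0.0323%), counted as the effect under GCSF minus the effect without it: 2 differences were above 0 (0.0161%) and 2 below 0 (0.0161%). Lipg was 4.39, 4.54, 5.02, 5.12 and 5.54 in the untreated 600 cGy mice and 4.02 to 5.39 in the untreated controls, so that the GCSF mice at 600 cGy lay above every untreated mouse. Its effect was 0.48 ± 0.23 without GCSF and 2.74 ± 0.32 larger with it (adjusted p = 7.7e-07). Syne1, a nuclear envelope protein, had an effect 0.86 ± 0.16 larger under GCSF (0.015), a call lost without GCSF 600 cGy mouse 5 (0.77, 0.0522). Galns, a lysosomal sulfatase, and Pih1d1, a chaperone cofactor, had differences of -0.86 ± 0.17 and -0.77 ± 0.15 (both limma adjusted p = 0.0209). Galns fell under GCSF (-0.46 ± 0.12, limma adjusted p = 0.00345) and rose without it (0.41 ± 0.12, 0.026). Pih1d1 fell under GCSF (-0.46 ± 0.11, limma adjusted p = 0.000993), while its difference without GCSF was 0.32 ± 0.11 (0.0578). The calls of these 2 differences were lost in 7 and 6 of the fits that left out 1 mouse.

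With all untreated controls, no p53 list gene was called in the difference of the 600 cGy effects between the agents. Only 0.0323% of all genes were called in that test, so this absence says little of the p53 lists. Cdkn1a rose by 2.89 ± 0.32 at 600 cGy in GCSF mice and by 2.89 ± 0.32 in untreated mice, and the difference of the effects was 0 ± 0.45. Without the untreated library labelled mouse 10 that difference was -0.53 ± 0.26 (limma adjusted p = 0.332). For Cd79a it was -1.72 ± 0.64 with that library and -1.02 ± 0.43 without it, and for Thy1 -1.34 ± 0.57 and -0.92 ± 0.50. None of these was called.

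Without that library, the difference of the 600 cGy effects was above 0 for 2 genes (0.0161%) and below 0 for 21 (0.169%), and at 150 cGy above 0 for 3 (0.0242%) and below 0 for 39 (0.315%). These differences and the comparison of GCSF with no agent at 0 cGy share the same control mice. Lcn2 rose by 4.08 ± 0.21 at 600 cGy in untreated mice, reaching 11.61 to 12.41, and by 1.14 ± 0.20 in GCSF mice in the same fit, reaching 11.99 to 13.01. The difference of the effects was -2.93 ± 0.29 (limma adjusted p = 8.27e-09) without the library and -2.25 ± 0.56 (0.0611) with it. Lrg1 gave -2.72 ± 0.30 without it (9.04e-08), Socs3 -1.98 ± 0.34 (0.0016) and Ifitm1 -1.72 ± 0.28 (0.000519). At 150 cGy the differences were -2.90 for Lcn2, -2.54 for Lrg1, -2.39 for Socs3 and -1.61 for Ifitm1, all called without it. Lipg remained 2.56 ± 0.30 larger under GCSF (4.19e-07).

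The count of 4 at 600 cGy also moved with other mice. It was 2 without GCSF 600 cGy mouse 1, 1 without mouse 5 and 210 without mouse 6. It was 2 without GCSF control 1 and 93 without GCSF control 8. It was 21 without untreated 600 cGy mouse 1. Leaving out untreated controls 1, 2, 3 and 8 in turn gave 16, 128, 109 and 2.

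**Figure D4:**
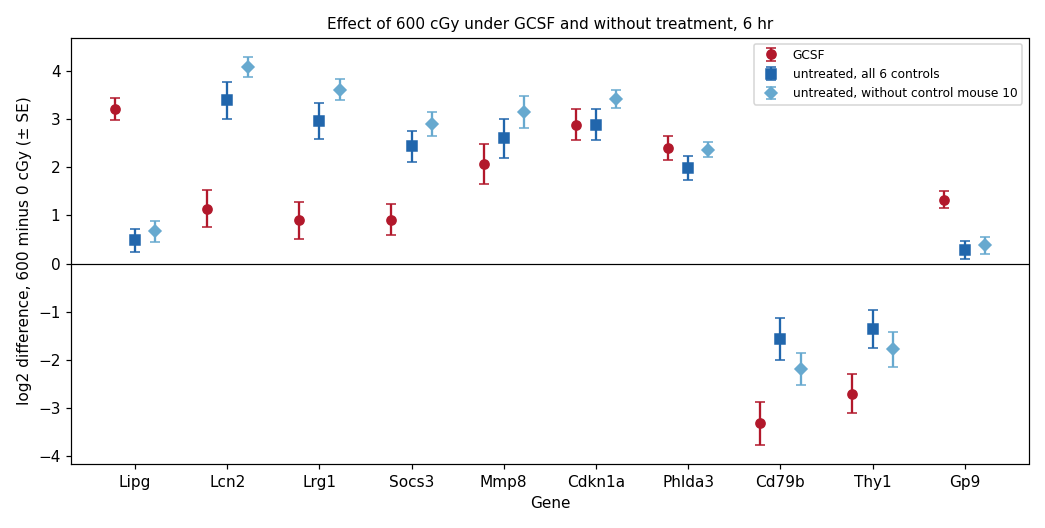
Log2 difference between 600 and 0 cGy with its SE for 10 genes in GCSF mice, in untreated mice with all 6 controls, and in untreated mice without the library labelled control mouse 10. Lipg stands high only under GCSF, Lcn2, Lrg1 and Socs3 stand higher in untreated mice, and Cdkn1a and Phlda3 lie close together.

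Separate mice under GCSF at 6 hr were available in the sex and treatment set, with 10 mice at 0 cGy, 10 at 200 cGy and 9 at 600 cGy of both sexes, and 4 of the last 9 were female. That set was fitted on its own and called 6155 genes at 600 cGy (49.7%), with an all-gene median of 0.13. Of the 3096 genes called here at 600 cGy, 2351 were called there in the same direction, which is 75.9% of the calls here and 38.2% of the calls there. Called in opposite directions were 2 genes, Adgre5 and Trappc10. Across 12393 genes, which are not independent, the differences had a Pearson r of 0.78.

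Of the 115 genes named here that were called at 600 cGy, 99 were called there in the same direction. Cdkn1a rose by 2.42 ± 0.21 there and Lipg by 2.38 ± 0.47, while Ighv14-2 (-5.10) and Thy1 (-2.31) fell. Lipg was 3.81 to 5.66 in females and 4.69 to 6.31 in males at 0 cGy, and 5.46 to 7.73 and 5.96 to 9.39 at 600 cGy. Genes called here and not there in the same direction included the p53 death genes Apaf1, Pmaip1 and Bid, and Rbl2, Mcl1, Ltf, Thbs1, Marco and Saa1. Saa1 differed by 0.90 ± 0.90 there (limma adjusted p = 0.392). In that set 11 of 17 p53 arrest genes rose at 600 cGy, 24 of 26 B cell genes fell, 20 of 24 T cell genes fell, 21 of 21 neutrophil genes rose and 12 of 18 platelet genes rose. Over all genes 26.2% rose and 23.5% fell there at that dose, larger shares than in the small set. At 200 cGy there, where 11.6% of all genes were called (3.83% up and 7.75% down), 18 of 21 neutrophil genes rose and 7 of 24 T cell genes fell. At 150 cGy here none of either list was called, and the doses differ.

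**Figure D5:**
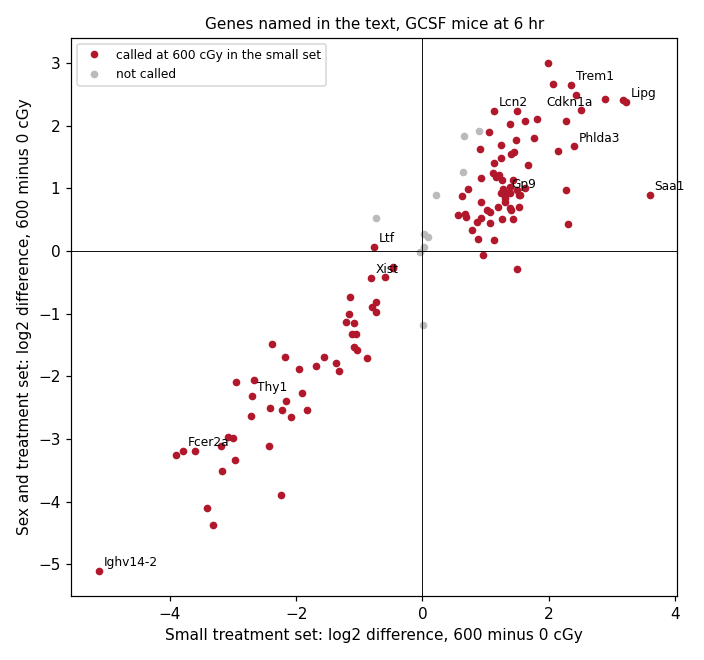
Log2 difference between 600 and 0 cGy under GCSF for the genes named in the text, in the small treatment set (horizontal axis, 5 and 6 mice) and in separate mice of the sex and treatment set (vertical axis, 9 and 10 mice). Red points were called in the small set; most lie on the same side of 0 in both sets, and Saa1 lies far to the right of its value in the other set.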

How the data were processed

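Each probe set has a log2 value that the authors computed by RMA in the affy package, per the submitters' processing notes (no version or settings given). Whether the sets were normalised together is not given in the sources used here. RMA values carry no counting depth; precision rests on group size and the spread between mice. The 50 arrays of the small set spanned 2.33 to 14.76.

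Of 22690 probe sets, 64 controls were dropped, as were 1555 that lacked a gene symbol and 691 that had more than 1. The other 20380 stood for 12393 genes, and the brightest probe set stood for each of the 4956 genes with several. A group-means model over the 9 groups of the small set was fitted with limma 3.58.1 in R 4.3.3, with 41 residual degrees of freedom, and checked on simulated data. The sex and treatment set was fitted likewise. Contrasts were adjusted by Benjamini-Hochberg. Labelled replicates are separate mice; mouse numbers recur between groups, but same-numbered mice did not deviate together (mean r -0.04 over 11 pairs), so they were not paired.

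Named genes were the 12 called rises and 12 called falls of largest fold at each dose, 6 and 6 in the other contrasts, the members of smallest p per list (4 at 600 and 2 at 150 cGy), and a fixed core (Cdkn1a, Mdm2, Lcn2 and others). Myh6, B2m and list members named only within a count were chosen after their values were seen. The lists (30, with 498 of 585 names measured, some shared between lists) and members were chosen with earlier results of these data known. Promoters came from RefSeq, GRCm38.p6. Plots were drawn with matplotlib 3.10.9, and tables made with pandas 2.3.3 under Python 3.11.15. Alternatives were other groupings of the fit, a replicate block, filters, probe set means, other scalings, array weights, a fold minimum of 0.5 and leaving out each mouse. Array spread as a covariate and leaving out both control mice were added after seeing the data.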

Additional observations from a re-analysis of the deposited data

Results flagged for a closer look

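In 411 combinations of a named gene and a group, 49 had 1 mouse far from the others of its group. Chance alone gives this in about 1 in 20 independent groups. Genes of 1 array can deviate together, so the 49 are not to be set against that rate. GCSF control mouse 4 accounted for 25 of them. It was low for Mdm2 (6.75), Ei24 (8.07), Rbl2 (3.01), Mcl1 (9.55) and Bid (6.19) among p53 and BCL2 genes. It was low for the lymphocyte genes Igkv6-14 (5.61), Cr2 (5.40), Ms4a1 (10.23), Fcrl1 (6.97), Igk (6.04), Irf4 (6.66), Cd8b1 (8.10) and Gzmb (6.53), and for Psmb8 (9.0). It was also low for Mmp8 (8.24), Csf3r (10.17), Csf2rb (6.82) and Tlr2 (6.99), for Ifit2 (5.62) and Igtp (8.18), and for the platelet genes Alox12 (9.05), Thbs1 (5.74) and P2ry12 (4.56). It was high for Rpa1 (9.76) and Myl2 (7.08).

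Other GCSF mice were far from their group for a few genes each. Control mouse 6 was low for Galns (6.76). At 150 cGy, mouse 3 was low for Zmat3 (6.97) and H2-Oa (7.94), mouse 4 was low for Mdm2 (8.40) and S100a8 (13.40), and mouse 7 was high for Csf3r (12.49), Ifitm1 (13.48) and Myl2 (4.88). At 600 cGy, mouse 1 was low for Serpinb1a (7.94) and Thbs1 (10.34), and mouse 3 was low for Xrcc5 (4.16), Ighv14-2 (4.93), Igk (5.37) and Psmb8 (8.53). Mouse 4 was high for P2ry12 (10.44), mouse 5 for Cebpd (10.98) and Junb (9.93), and mouse 6 for Dglucy (8.74).

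Of the untreated mice, the library labelled 0 cGy mouse 10 was high for Lcn2 (12.04), Lrg1 (12.56) and Cdkn1a (10.47) and low for Cd79a (7.23). At 150 cGy mouse 6 was high for Lcn2 (11.75), and at 600 cGy mouse 7 was low for Galns (6.77).

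By the test of the difference itself, the 600 cGy effect differed between GCSF and untreated mice for Lipg (2.74), Syne1 (0.86), Galns (-0.86) and Pih1d1 (-0.77), given as the effect under GCSF minus the effect without it on the log2 scale.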

How the results depend on the processing

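Of 221 calls of named genes, none reversed in 6213 combinations of a call and an alternative: 5899 kept the call and 314 lost it. At 600 cGy 10 of 115 calls were lost under at least 1 alternative, and at 150 cGy 28 of 44 held under every alternative run. Of 85 counts under alternatives other than leaving out a mouse, 57 were within 1.5 times the count reported. Group sizes of 4 to 6 mice and the spread between mice limit precision, and the causes of these shifts were not tested.

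For 150 against 0 cGy (219 genes called) the count was 106 with only the GCSF and untreated groups fitted, 559 with array weights and 434 with array spread as a covariate. For 600 against 150 cGy (487) it was 283, 1703 and 836 in the same order, and 1083 without both control mice. For the difference of the 150 cGy effect between agents (0) it was 12 with array weights and 45 without both control mice. For the difference of the 600 cGy effect (4) it was 22 with the GCSF and untreated groups, 67 with dim genes left out, 12 with the mean of probe sets and 24 with quantile normalization. It was 429 with array weights, 201 with array spread and 31 without both control mice. For GCSF against none at 0 cGy (68) it was 36 with those groups, 236 with array weights, 613 with array spread and 252 without both control mice. In the sex and treatment set, a minimum log2 fold of 0.5 left 3257 genes at 600 cGy and 946 at 200 cGy, and array weights gave 4747 at 200 cGy.

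With mouse number as a replicate block the counts were 349, 762, 17, 21 and 192 in the same order of comparisons, 3206 at 600 cGy, and 6518 and 1544 in the other set. The numbers did not pair the mice (mean correlation -0.04, from -0.38 to 0.42).

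Leaving out each of the 16 GCSF mice in turn gave 129 to 354 genes at 150 cGy, 2645 to 3470 at 600 cGy and 110 to 753 between the doses. Without untreated mouse 10, which enters these fits only through the shared spread, the counts at 150 cGy and between the doses were 371 and 812. Leaving out 1 mouse of the groups compared gave 0 to 42 and 1 to 210 for the differences of the effects, 28 to 195 for GCSF at 0 cGy, and 4728 to 6885 and 1106 to 1741 in the other set at 600 and 200 cGy.

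With arrays centred on their medians, the share of calls between the doses that rose went from 38.0% to 57.1% (280 rose and 210 fell). In the other set at 600 cGy it went from 52.7% to 63.5%, and quantile normalization turned 2 of 4 called rises in the 600 cGy difference into 19 of 24.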
